A study of Mus musculus with 16 samples.

Results

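Lrat, Rbp4 and Ttr are the 3 genes described here, of 23420 genes in a count table of mouse liver RNA. They were chosen by symbol as the genes of retinol storage and of its transport in plasma. Livers came from male C57BL/6J wild-type mice, and every mouse ate a high-fat diet (HFD) labelled as 45% HFD. In the FEN-HFD groups the diet also held 0.04% fenretinide, a synthetic retinoid, and each diet was given for 7 days or for 20 weeks, with 4 mice in each of the 4 groups. The comparisons asked what fenretinide did to liver gene expression on this diet, early and late. The mice at 7 days and at 20 weeks were different animals, so duration, age and cohort cannot be told apart.

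The liver is the main store of vitamin A. LRAT (lecithin retinol acyltransferase) joins retinol to a fatty acid, and the resulting retinyl esters are kept in lipid droplets, chiefly in quiescent hepatic stellate cells. When tissues need retinol, hepatocytes secrete it bound to RBP4 (retinol binding protein), and RBP4 circulates together with TTR (transthyretin), which also carries thyroxine. Lrat is a known target of retinoic acid, and fenretinide is known to bind RBP4 and to interfere with its pairing with TTR. These RNA data measure no protein, retinol or retinyl ester.

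Both diets gave livers rich in hepatocyte transcripts. Alb, which encodes albumin, stood at a mean of 34665 to 51060 CPM in the 4 groups. CPM are read counts relative to the size of the library, with all 16 libraries put on one scale by TMM. Libraries held 19218230 to 32546829 counts. The library of FEN-HFD mouse 29 at 20 weeks stood apart, with 53.1% of its counts in Rn45s (ribosomal RNA) and 4.36% in Lars2, against 0.466% to 1.46% and 0.00173% to 0.0499% in the other 15. For the fenretinide comparisons of gene lists described below, calls that this mouse decided are given with the value without it.

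Lrat lies on chromosome 3 (chr3:82892582-82903974, minus strand, RefSeq annotation of GRCm38.p6, the assembly also called mm10). Rbp4 lies on chromosome 19 (chr19:38116620-38125321, minus strand). Below are the 100 bases before the RefSeq start of Lrat and before the downstream of the 2 RefSeq starts of Rbp4, read 5′ to 3′ on the minus strand. Capitals mark TATAA, the core of a TATA box. It began 29 bases before the start of Lrat and 28 before the downstream start of Rbp4. With its first base 40 to 20 bases before the start, 3.52% of 32851 RefSeq promoters held it in the transcript's direction. The upstream start of Rbp4 had none in that range.
Lrat, chr3:82903975-82904074: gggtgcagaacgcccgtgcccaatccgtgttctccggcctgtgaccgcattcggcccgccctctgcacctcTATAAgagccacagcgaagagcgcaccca
Rbp4, chr19:38124812-38124911: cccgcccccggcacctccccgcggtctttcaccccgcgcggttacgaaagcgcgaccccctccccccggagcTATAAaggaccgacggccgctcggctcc

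Retinoic acid receptors are known to bind paired half-sites in the same direction. The half-site AGGTCA and the variants GGGTCA (with another first base), AGTTCA (with another base in the middle) and GGTTCA (with both) were searched on both strands from 250 bases before to 50 bases after each RefSeq start. No pair spaced by 1, 2 or 5 bases was found in the windows of Lrat or of either start of Rbp4. This says only that these letters are not in these windows. A pair spaced by 5 was present in 0.0974% of promoters, among them those of Cyp26a1 and Rarb, which are shown because both genes changed with Lrat (below). Here capitals mark the 2 half-sites, on the minus strand of GRCm38.p6.
Cyp26a1, chr19:37697771-37697797: aaattAGTTCAcccaaAGTTCAtcttt
Rarb, chr14:16575508-16575534: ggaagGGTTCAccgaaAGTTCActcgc

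Lrat RNA was higher with fenretinide at both durations, Rbp4 RNA did not pass the test in any comparison, and Ttr RNA was lower in every FEN-HFD mouse than in any HFD mouse of the same duration without passing the main test. Lrat was 1.68-fold higher at 20 weeks and 1.89-fold higher at 7 days. All 3 genes passed the filter on low counts in each comparison.

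Lrat, the storage enzyme, measured 43.7, 42.7, 39.0 and 42.9 CPM in HFD mice 142, 143, 144 and 146 at 7 days. In FEN-HFD mice 61, 62, 65 and 66 it measured 91.0, 74.0, 81.3 and 70.7 CPM. The lowest FEN-HFD liver was thus above the highest HFD liver by a wide gap, and the means were 79.2 ± 9.01 and 42.1 ± 2.10 CPM (SD, n = 4). The log2 fold change was 0.92 (SE 0.09, 95% interval 0.71 to 1.12), with an adjusted p of 0.00334 in edgeR's quasi-likelihood test with Benjamini-Hochberg adjustment over 13157 genes. In this comparison 0.0988% of genes tested were called, 13 genes that were all higher, and Lrat had the 4th smallest p of all genes and the 64th largest log2 fold change. It stayed called when any 1 of the 8 mice was left out, with adjusted p between 0.00459 and 0.0284. It was not called against a minimum change of 1.5-fold (adjusted p = 0.661), and the range over all alternatives was 2.61e-14 to 0.661.

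At 20 weeks Lrat measured 58.1, 58.4, 43.2 and 37.5 CPM in HFD mice 25, 28, 33 and 45. It measured 75.8, 86.8, 81.3 and 88.0 CPM in FEN-HFD mice 21, 22, 24 and 29. The groups again did not overlap, but the HFD livers were spread more widely, with a coefficient of variation of 21.4% against 4.98% in HFD livers at 7 days. Mice 25 and 28 were the high pair among them and mouse 45 was the lowest. Means were 83.0 ± 5.63 and 49.3 ± 10.6 CPM, and the log2 fold change of 0.75 (SE 0.15, 95% interval 0.42 to 1.07) had an adjusted p of 0.0357 in edgeR's test over 13010 genes, of which 1.86% were called and 0.769% were called higher. That is 242 genes, against 36 without FEN-HFD mouse 21 and 424 without mouse 29. The call was lost without FEN-HFD mouse 21 (adjusted p = 0.0889), mouse 22 (0.0889) or mouse 24 (0.0763), or without HFD mouse 25 (0.0687) or mouse 33 (0.0802), while the log2 fold change stayed between 0.64 and 0.84. Without mouse 29 it was 0.72 with an adjusted p of 0.0439. Over all alternatives the adjusted p ran from 0.000272 to 1, the last against a minimum change of 1.5-fold.

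Ordered by mean, Lrat was lowest in HFD at 7 days, then HFD at 20 weeks, then FEN-HFD at 7 days and highest in FEN-HFD at 20 weeks. The 2 HFD groups overlapped, as did the 2 FEN-HFD groups, whereas all 8 FEN-HFD livers were above all 8 HFD livers. Between 7 days and 20 weeks the log2 difference was 0.22 on HFD (adjusted p = 0.372) and 0.06 on FEN-HFD (adjusted p = 0.954), in edgeR's test. The effect of fenretinide on Lrat at 20 weeks minus that at 7 days was -0.16 on the log2 scale (SE 0.18, 95% interval -0.54 to 0.21, adjusted p = 0.830).

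Rbp4, the plasma carrier of retinol, measured 2223, 1480, 1896 and 2109 CPM in HFD mice 142, 143, 144 and 146 at 7 days, and 1818, 1807, 2005 and 1878 CPM in FEN-HFD mice 61, 62, 65 and 66. The 4 FEN-HFD livers lay inside the range of the HFD livers. At 20 weeks it measured 1888, 1557, 2131 and 2238 CPM in HFD mice 25, 28, 33 and 45, and 1624, 2079, 2133 and 1223 CPM in FEN-HFD mice 21, 22, 24 and 29. The ranges overlapped there too, and the lowest of all 16 values was that of mouse 29. Group means ran from 1765 ± 427 CPM in FEN-HFD at 20 weeks to 1954 ± 302 CPM in HFD at 20 weeks, with 1877 ± 90.9 CPM in FEN-HFD and 1927 ± 328 CPM in HFD at 7 days between them, and no neighbours in this order differed beyond their spread.

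The log2 fold change of Rbp4 with fenretinide was -0.15 at 20 weeks (95% interval -0.58 to 0.29, adjusted p = 0.728) and -0.03 at 7 days (95% interval -0.33 to 0.26, adjusted p = 1.00), by edgeR's test. The interval at 20 weeks therefore takes in changes from 0.669-fold to 1.22-fold, and the one at 7 days from 0.796-fold to 1.20-fold. Without mouse 29 the value at 20 weeks was -0.00288. Over the durations the log2 differences were 0.01 on HFD and -0.10 on FEN-HFD, with adjusted p of 0.986 and 0.952 in edgeR's test.

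Ttr, which encodes transthyretin, lies on the plus strand of chromosome 18 (chr18:20664209-20674326) and was the most abundant of the 3 transcripts per length. At 7 days it measured 5867, 5413, 4795 and 6403 CPM in HFD mice 142, 143, 144 and 146, and 4126, 4346, 4191 and 4472 CPM in FEN-HFD mice 61, 62, 65 and 66. At 20 weeks the values were 6283, 5962, 6653 and 6474 CPM in HFD mice 25, 28, 33 and 45, and 4597, 4899, 4269 and 4497 CPM in FEN-HFD mice 21, 22, 24 and 29. At each duration the highest FEN-HFD liver was below the lowest HFD liver, closest at 7 days where HFD mouse 144 was the low one. Lrat and Ttr were thus the 2 of 3 genes whose groups did not overlap, which held for 12.8% of genes tested at 20 weeks and 3.19% at 7 days.

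The log2 fold change of Ttr was -0.47 at 20 weeks (SE 0.12, 95% interval -0.73 to -0.22), and edgeR's test gave an unadjusted p of 0.00226 and an adjusted p of 0.0726. At 7 days it was -0.39 (SE 0.12, 95% interval -0.65 to -0.13), with an unadjusted p of 0.00774 and an adjusted p of 0.576. Both missed the threshold of 0.05. Other settings passed it, since at 20 weeks the adjusted p was 4.48e-09 with DESeq2, 0.0233 with limma-voom and 0.0197 with all 16 libraries in 1 edgeR fit. With any 1 mouse left out it was 0.0563 to 0.206, and against a minimum change of 1.5-fold it was 1. At 7 days DESeq2 gave 0.0370 and none of the other alternatives passed, with adjusted p up to 1.00.

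Means of Ttr were 4284 ± 156 CPM in FEN-HFD at 7 days, 4566 ± 262 in FEN-HFD at 20 weeks, 5619 ± 683 in HFD at 7 days and 6343 ± 295 in HFD at 20 weeks. Neighbours in this order overlapped, the middle pair through HFD mouse 144 and FEN-HFD mouse 22. The log2 differences between 20 weeks and 7 days were 0.16 on HFD (adjusted p = 0.427) and 0.08 on FEN-HFD (adjusted p = 0.930) by edgeR's test, and the fenretinide effects at the 2 durations differed by -0.08 (adjusted p = 0.914). None of the 3 genes was called between durations, where 7.51% of genes were called on HFD and 1.18% on FEN-HFD, nor in the difference between the fenretinide effects, where 0.0299% were. For these 3 comparisons no unadjusted p of the 3 genes was under 0.05, and neither DESeq2 nor limma-voom made a call.

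**Figure D1:**
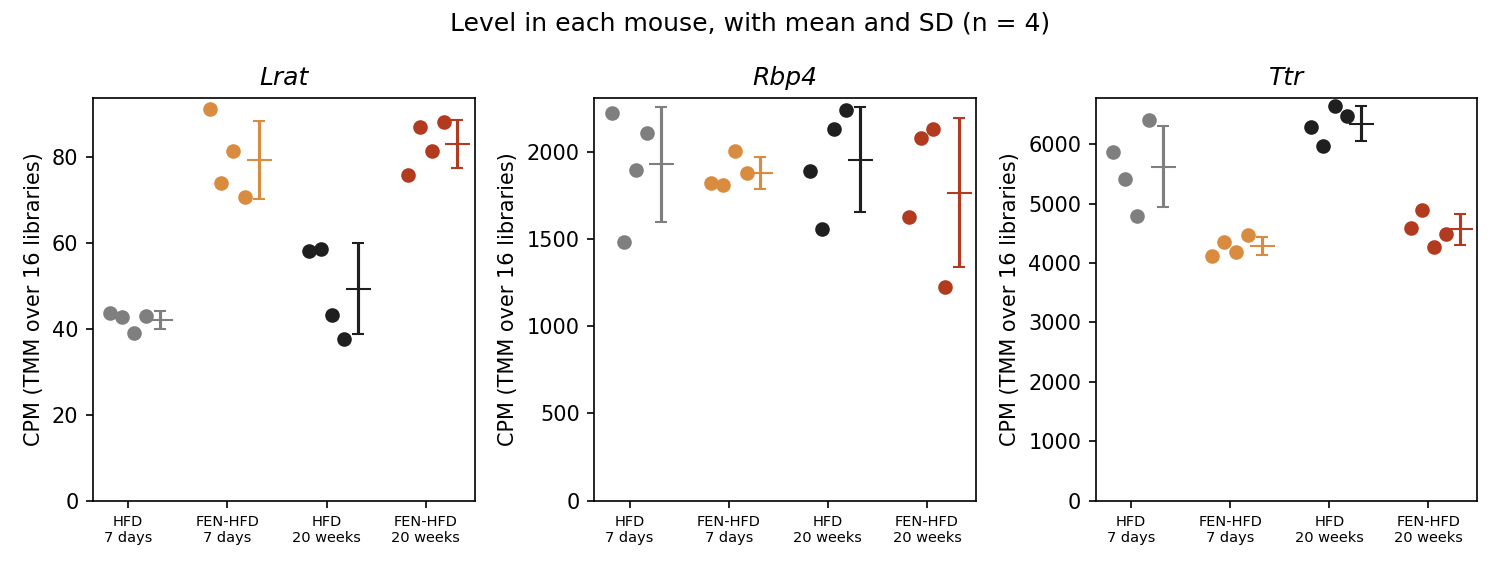
CPM of Lrat, Rbp4 and Ttr in each mouse (points, 4 per group) with the group mean and SD (bar beside the points), on axes that start at 0. Lrat sits at 70.7 to 91.0 CPM in the 8 FEN-HFD livers and at 37.5 to 58.4 CPM in the 8 HFD livers, Rbp4 overlaps between groups, and Ttr is lower in FEN-HFD at each duration.

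**Figure D2:**
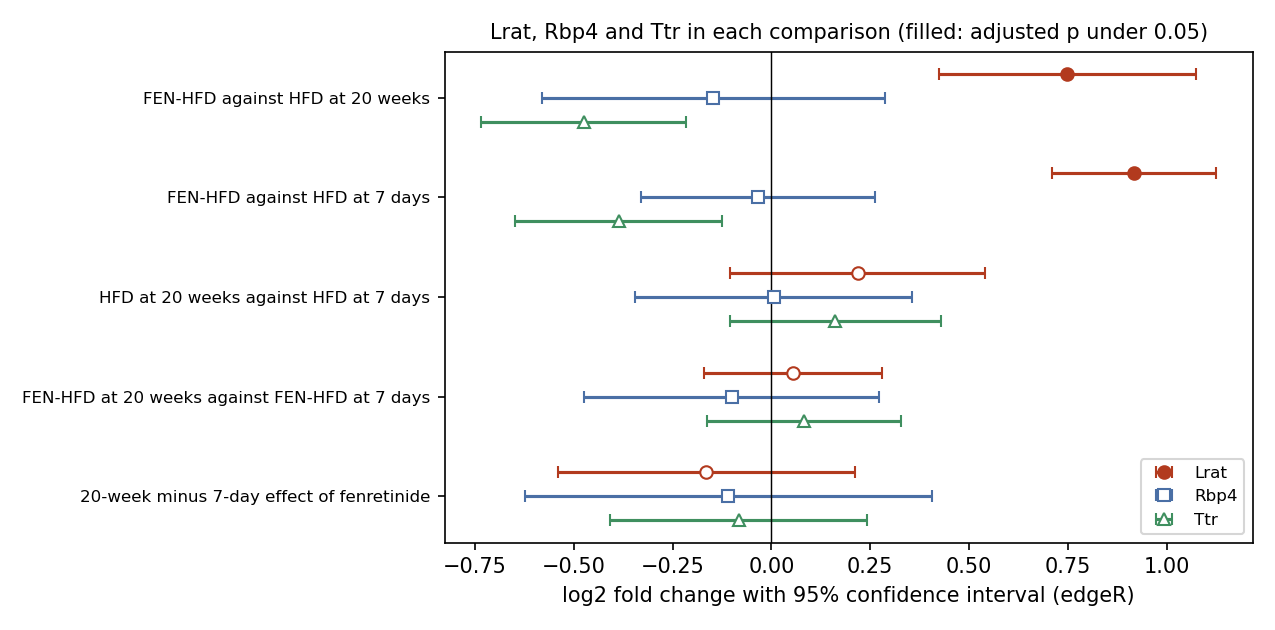
Log2 fold changes of the 3 genes in 4 comparisons, and the 20-week minus 7-day difference of the fenretinide effect, with 95% confidence intervals from edgeR. Filled symbols have an adjusted p under 0.05, which only Lrat reached, at 0.75 (20 weeks) and 0.92 (7 days).

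Divided by the exon length of each gene (5351 bases for Lrat, 1343 for Rbp4 and 1186 for Ttr, GENCODE M21), levels were 7.02 to 17.0 CPM per kb for Lrat, 910 to 1667 for Rbp4 and 3479 to 5610 for Ttr. The counted gene models were not known, so these levels are approximate. Rbp4 was on average 183 times Lrat per kb in HFD livers at 7 days and 95.3 times in FEN-HFD livers. At 20 weeks the ratios were 167 and 85.2.

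Ttr per kb exceeded Rbp4 per kb in every liver. The ratio was 3.36 ± 0.578 in HFD and 2.59 ± 0.163 in FEN-HFD at 7 days, where the groups did not overlap (2.86 to 4.14 against 2.37 to 2.72). At 20 weeks it was 3.73 ± 0.452 in HFD and 3.08 ± 0.822 in FEN-HFD, and the ranges overlapped through mouse 29 alone, the liver with the lowest Rbp4, at 4.17. The other FEN-HFD livers, at 2.27 to 3.21, were below the lowest HFD liver at 3.28, but mouse 29 was set apart here with its value known. The ratio was not tested, and how often ratios of other gene pairs separate the groups was not counted.

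Lrat is a stellate cell gene, so its level was set beside 22 other markers of quiescent stellate cells, such as Reln, Des, Hand2 and Lhx2. In bulk liver, fewer cells of a type and less RNA per cell cannot be told apart. None of the 22 markers was at 0 in all livers of a group, and their summed level was 938 to 1288 CPM in FEN-HFD and 922 to 1023 CPM in HFD at 20 weeks, and 843 to 1050 and 896 to 1006 CPM at 7 days. At 20 weeks 0 of the 22 rose and 1 fell by edgeR's test, with 1 and 3 at an unadjusted p under 0.05. The one called lower was Adamtsl2 (log2 fold change -1.61, adjusted p = 0.0145). At 7 days none was called, 1 reached an unadjusted p under 0.05 (higher), and DESeq2 and limma-voom also called none. The higher one at 20 weeks was Steap4 (0.91, unadjusted p = 0.00725, adjusted p = 0.116, edgeR). The one at 7 days was Hgf (0.36, unadjusted p = 0.00470, adjusted p = 0.520, edgeR). Besides Adamtsl2, the lower ones at 20 weeks were Reln (-0.31, unadjusted p = 0.0373, edgeR) and Pdgfrb (-0.50). Pdgfrb at 20 weeks had an unadjusted p of 0.0417 and an adjusted p of 0.249 in edgeR's test, so many genes of the whole table had a p this small. The share of all genes at an unadjusted p under 0.05 was not counted. Such counts, in this and later lists, therefore have no background beside them. For calls by the other methods in these lists, the background at 20 weeks was 1011 (DESeq2) and 1089 (limma-voom) of 13010 genes tested. At 7 days it was 95 and 34 of 13157.

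Relative to the mean log2 CPM of these markers, Lrat was higher in every FEN-HFD liver than in any HFD liver. The log2 difference between Lrat and the marker mean was 2.30, 2.59, 2.52 and 2.18 in FEN-HFD mice 21, 22, 24 and 29, and 1.84, 1.78, 1.64 and 1.09 in HFD mice 25, 28, 33 and 45. At 7 days it was 2.67, 2.36, 2.47 and 2.29 in FEN-HFD mice 61, 62, 65 and 66 and 1.58, 1.71, 1.22 and 1.65 in HFD mice 142, 143, 144 and 146. The diets differed by 0.81 at 20 weeks and 0.90 at 7 days, each with a two-sided exact permutation p of 0.0286, the smallest that 4 mice against 4 can give, and 0.0571 after adjustment over 4 comparisons, which misses 0.05. The marker mean itself differed by -0.04 (exact permutation p = 0.771) and 0.00289 (exact permutation p = 0.971). Between durations the relative level differed by 0.04 on HFD and -0.05 on FEN-HFD, with exact permutation p of 0.800 and 0.686.

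**Figure D3:**
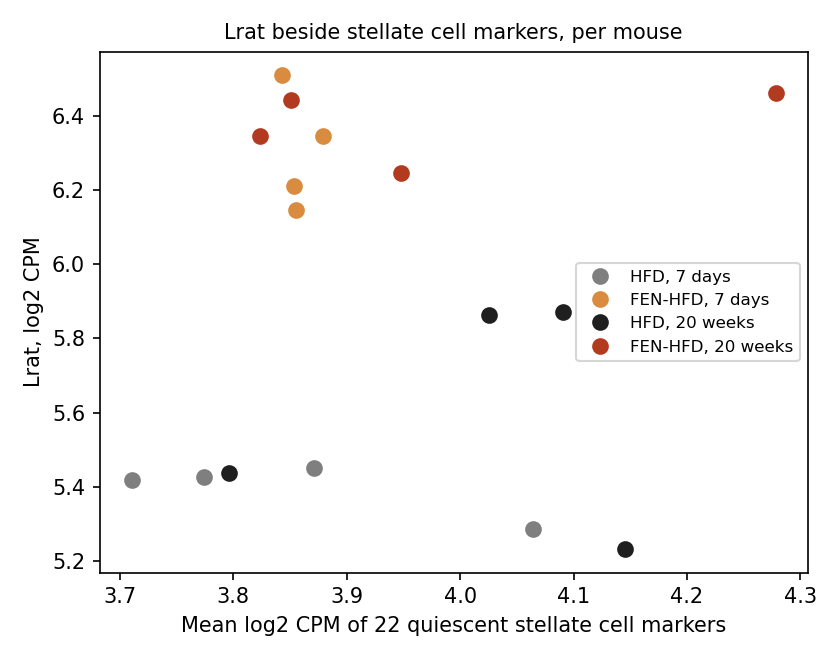
Lrat (vertical axis, log2 CPM) against the mean log2 CPM of 22 quiescent stellate cell markers (horizontal axis), 1 point per mouse. The FEN-HFD livers lie above the HFD livers while their marker levels overlap, and the point farthest to the right is FEN-HFD mouse 29.

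Among 13 markers of activated stellate cells and fibroblasts, 11 were tested at 20 weeks and 1 fell with fenretinide. It was Lum, which encodes the matrix proteoglycan lumican (log2 fold change -1.39, adjusted p = 0.0179, edgeR). At an unadjusted p under 0.05, 6 were lower and 0 higher, DESeq2 called 4 lower and limma-voom 6, and the median log2 fold change was -1.10 against 0.01 over all genes. Without mouse 29 Col1a1, a collagen gene, was also called lower (-2.22, adjusted p = 0.0216, against -1.36 and 0.264 with it). On HFD the 20-week livers had 2 of 12 higher than the 7-day livers, Tagln and Col1a1, where 7.51% of all genes were called in either direction. The summed level of this list was 401 to 862 CPM in HFD livers at 20 weeks, the group in which Lrat was most variable, and 349 to 476 CPM in HFD livers at 7 days. Its part in the spread of Lrat was not tested.

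Other genes of retinoid handling were described by role, with the 3 genes above left out of the lists. Of 14 tested genes that make or cleave retinyl esters, 0 were called with fenretinide at either duration by edgeR. At 20 weeks 0 were higher and 2 lower at an unadjusted p under 0.05, DESeq2 called 1 lower and limma-voom 2, and the median log2 fold change was -0.17 against 0.01 over all genes. Dgat1, whose enzyme can also esterify retinol, measured 27.1 ± 2.33 CPM in HFD and 26.9 ± 2.35 in FEN-HFD at 20 weeks, and 25.7 ± 2.05 and 27.0 ± 3.88 CPM at 7 days. Lipa (lysosomal acid lipase) had the smallest p at 20 weeks, with a log2 fold change of -0.63 and an adjusted p of 0.0541 in edgeR's test. At 7 days 2 were higher at an unadjusted p under 0.05, DESeq2 and limma-voom called none, and the median was 0.07 against -0.01 over all genes. On HFD, Lipa (0.87, adjusted p = 0.00644) and Ces2e (1.10, adjusted p = 0.00631) rose from 7 days to 20 weeks.

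Among genes of retinoid binding and uptake, Stra6, the RBP4 receptor of other tissues, had 0 counts in all 16 libraries.

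Both tested genes of retinoic acid breakdown rose at 20 weeks. Cyp26a1, the main retinoic acid hydroxylase of liver, went from 3.81 to 5.02 CPM in HFD to 287 to 318 CPM in FEN-HFD livers (log2 fold change 6.19, adjusted p = 8.78e-09, edgeR), and Cyp26b1 by 1.91 on the log2 scale (adjusted p = 0.0168). At 7 days Cyp26a1 passed (5.54, adjusted p = 0.0320) and Cyp26b1 did not (2.26, adjusted p = 0.0607) in edgeR's test, while DESeq2 and limma-voom called both higher. Of the 6 retinoic acid and retinoid X receptor genes 1 rose at each duration, Rarb, itself a known retinoic acid target, by 1.15 (adjusted p = 0.0168) and 1.16 (adjusted p = 0.00714). DESeq2 and limma-voom each also called 1 receptor gene lower at 20 weeks. Among 21 tested genes of retinol and retinal oxidation and reduction, 2 fell at 20 weeks, Rdh16 (-1.42, adjusted p = 0.00464) and Rdh9 (-1.28, adjusted p = 0.00701), and DESeq2 called 2 higher and 5 lower. Without mouse 29 Adh7, an alcohol dehydrogenase gene, was called higher by edgeR (0.88, adjusted p = 0.0407, against 0.80 and 0.0756 with it). Rdh16 and Rdh9 are close relatives in a gene cluster, so reads may have been split between them. At 7 days edgeR called none of the 21, with 2 higher and 3 lower at an unadjusted p under 0.05, and DESeq2 and limma-voom each called 1 lower.

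**Figure D4:**
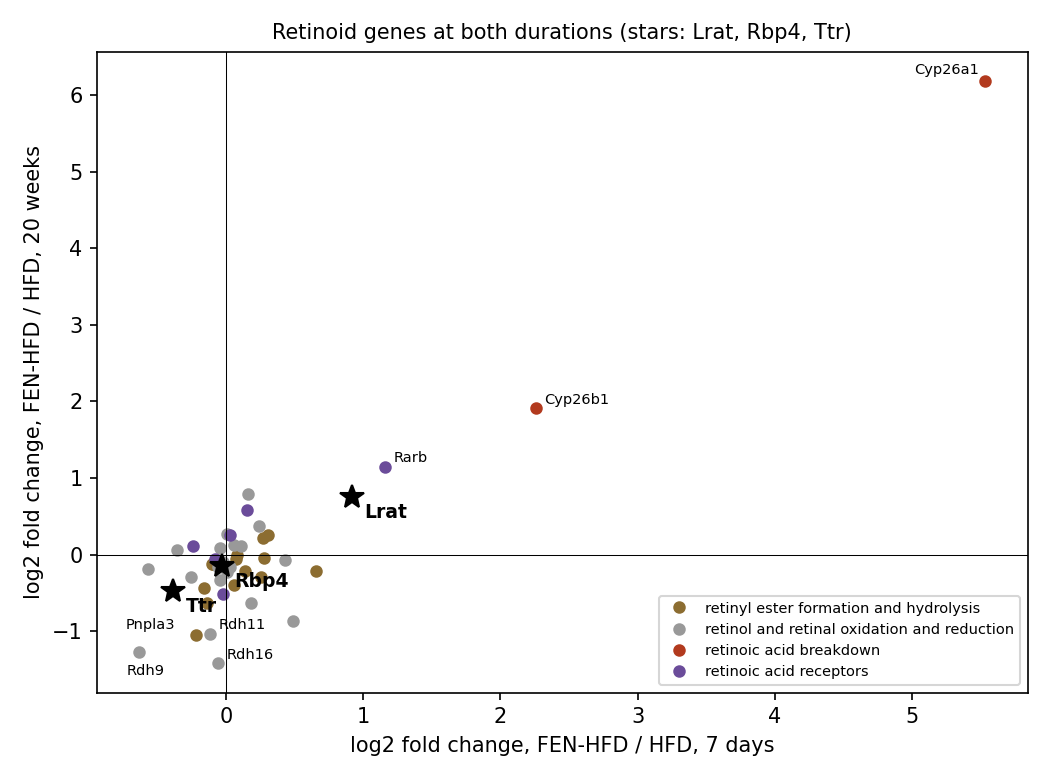
Log2 fold change with fenretinide at 7 days (horizontal axis) and 20 weeks (vertical axis) for tested genes of 4 retinoid lists (points, coloured by role), with Lrat, Rbp4 and Ttr as stars. Cyp26a1 lies far out at 5.54 and 6.19, Rarb and Lrat are higher at both durations, and Rbp4 lies at -0.03 and -0.15.

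Rbp4 and Ttr are secreted by hepatocytes, so 17 other plasma protein genes of hepatocytes were set beside them. With fenretinide 0 of 17 were called at either duration by edgeR with all libraries, but without mouse 29 Alb was called lower at 20 weeks (log2 fold change -0.68, adjusted p = 0.0325). At 20 weeks 9 were higher and 4 lower at an unadjusted p under 0.05 (DESeq2 called 6 and 4, limma-voom 2 and 2), and at 7 days 0 and 2 (DESeq2 called 1 lower, limma-voom none). Alb had log2 fold changes of -0.56 (adjusted p = 0.128) and -0.38 (adjusted p = 0.868) at 20 weeks and 7 days, and Trf (transferrin) had -0.35 (adjusted p = 0.228) and -0.49 (adjusted p = 0.294). More of the list went the other way at 20 weeks, such as Fgb (0.76, adjusted p = 0.0682, edgeR). The median log2 fold change of the list was 0.36 at 20 weeks and -0.07 at 7 days, against 0.01 and -0.01 over all genes. The summed level of the list was 110445 to 131914 CPM in FEN-HFD and 127104 to 141942 CPM in HFD livers at 20 weeks, and 120462 to 129315 and 123882 to 155267 CPM at 7 days. Its part in the lower Ttr values was not tested. On HFD 7 of the 17 were lower at 20 weeks than at 7 days, where 7.51% of all genes were called in either direction, while neither Rbp4 nor Ttr was called.

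Cebpa, which encodes a liver-enriched transcription factor known to act on the Ttr gene, was also lower in each FEN-HFD liver than in any HFD liver of its duration. Groups did not overlap for 12.8% of genes tested at 20 weeks and 3.19% at 7 days. Cebpa measured 315 to 385 CPM against 438 to 466 CPM at 20 weeks and 282 to 396 against 402 to 511 CPM at 7 days. Its log2 fold changes of -0.37 (adjusted p = 0.0996) and -0.34 (adjusted p = 0.866) did not pass edgeR's test. The part of Cebpa in the lower Ttr values was not tested. None of the 13 hepatocyte transcription factor genes passed with fenretinide, with 2 higher and 2 lower at 20 weeks and 0 and 1 at 7 days at an unadjusted p under 0.05. DESeq2 called 1 lower and limma-voom 1 higher at 20 weeks.

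Both Rbp4 and Ttr are known as negative acute phase genes, which go down in inflammation. The summed level of 20 positive acute phase genes was 21950 to 46100 CPM in FEN-HFD and 21210 to 24794 CPM in HFD livers at 20 weeks, and 24924 to 28479 and 25286 to 32077 CPM at 7 days. The medians at 20 weeks were 29845 CPM in FEN-HFD and 21473 CPM in HFD livers. The 3 fibrinogen genes are in both lists. None of the 20 was called with fenretinide by edgeR, with 8 higher and 2 lower at 20 weeks and 1 and 2 at 7 days at an unadjusted p under 0.05, and DESeq2 called 5 higher and 1 lower at 20 weeks (limma-voom 2 and 1). Among 10 Kupffer cell (liver macrophage) markers 1 rose at 20 weeks, Marco (2.26, adjusted p = 0.0357, and 1.75, adjusted p = 0.0178, without mouse 29). Their summed level was 651 to 1570 CPM in FEN-HFD and 519 to 606 CPM in HFD livers. The part of these genes in the values of Rbp4 and Ttr was not tested.

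TTR also carries thyroid hormone, and of 10 tested genes of thyroid hormone carriers and hepatic targets 1 fell with fenretinide at 20 weeks. It was Me1, which encodes malic enzyme (-1.93, adjusted p = 0.0384, edgeR). None was called at 7 days, where none reached an unadjusted p under 0.05 and neither DESeq2 nor limma-voom made a call.

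Genes within 500 kb of each member were compared to see whether neighbours moved with it. Of 8 genes in the table near Lrat 5 were tested and 0 were called with fenretinide by edgeR. The fibrinogen genes Fgg, Fga and Fgb lie 104, 122 and 138 kb from Lrat and had log2 fold changes of 0.61, 0.67 and 0.76 at 20 weeks (adjusted p = 0.0928, 0.0836 and 0.0682). At 7 days, when Lrat rose, theirs were 0.03, 0.06 and 0.03. On HFD all 3 fell between 7 days and 20 weeks by 0.61, 0.60 and 0.69 on the log2 scale (adjusted p = 0.0373, 0.0363 and 0.0384), and Lrat was not called. An antisense gene, Rbm46os, overlaps Lrat in the annotation and had 0 to 2 counts per library, against 846 to 3184 for Lrat. Whether counting used strand was not given.

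Of 11 genes in the table near Rbp4 8 were tested, and 1 was called with fenretinide at each duration, Cyp26a1, which lies 415 kb away. Cyp26a1, which had the largest fold change of the retinoid genes tested, and Rbp4, which was not called, thus lay on the same stretch of chromosome 19. Of 12 genes near Ttr 7 were tested and 0 were called with fenretinide. The most changed of these in the 20-week livers was Rnf125 (-0.74, adjusted p = 0.0765), which had 0.03 at 7 days.

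**Figure D5:**
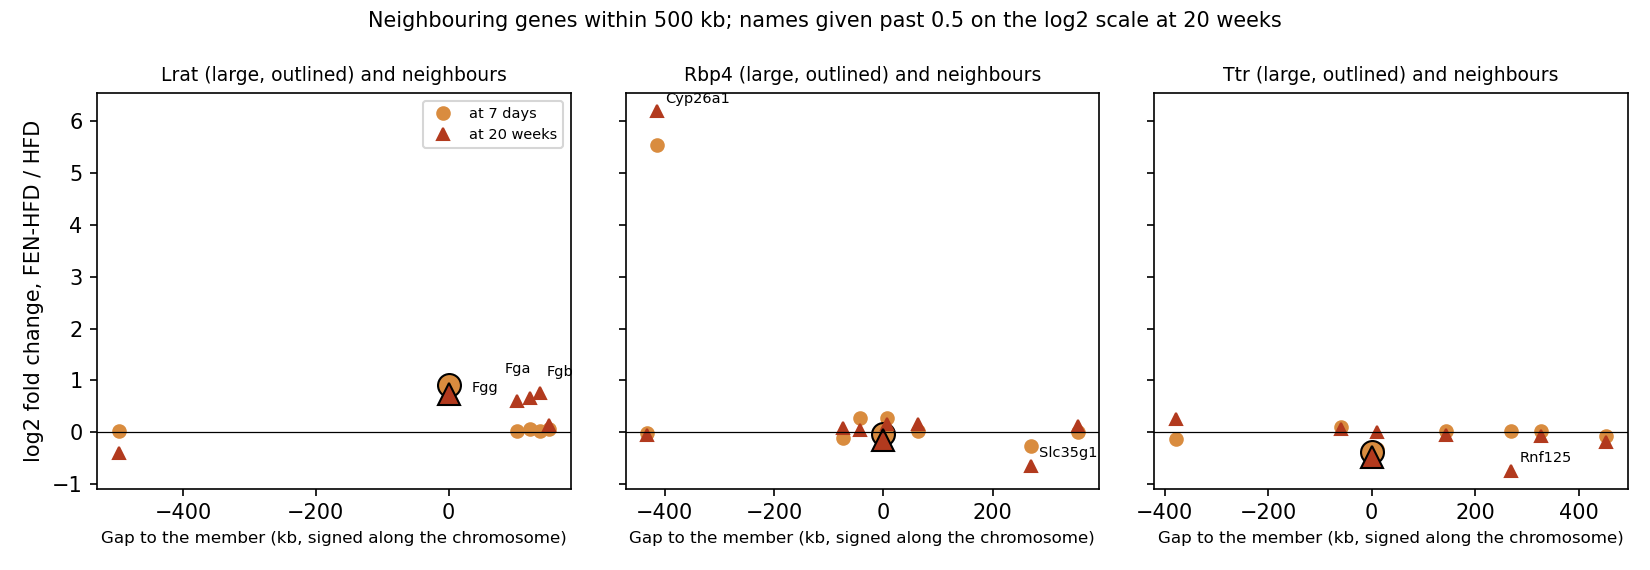
Log2 fold change with fenretinide of the tested genes within 500 kb of each member, against the gap to the member in kb, at 7 days (circles) and 20 weeks (triangles). The member is the large outlined symbol at 0, and beside Rbp4 the far point is Cyp26a1, at 5.54 and 6.19.

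Likeness was measured as Pearson's r of log2 CPM over the 16 livers among the 9468 genes whose mean reached 5 CPM. It is a description, since the livers share diet groups. For Lrat the closest genes were Raet1d (r = 0.951), Rarb (0.943), Cyp26a1 (0.921), Dclre1a (0.873) and Pisd-ps1 (0.869). Raet1d encodes a ligand of the natural killer receptor NKG2D and was itself called with fenretinide, at 3.74 (adjusted p = 0.00223) at 20 weeks and 5.57 (adjusted p = 4.06e-05) at 7 days. Once each group's mean was subtracted the closest genes were others, Nt5e (0.874), Rfx7 (0.851), Nup205 (0.832), Tceal8 (0.827) and Gss (0.825). The first ranking includes differences between groups, and the second only the spread between mice within the 4 groups. The within-group r of the first set is not given here. How high the best r of 9468 genes would be by chance was not tested.

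For Rbp4 the closest genes included Lrtm1 (0.924), Tmem183a (0.920), Atp5j (0.910) and Slc25a3 (0.909). Without mouse 29, the liver with the lowest Rbp4, their r was 0.880, 0.889, 0.830 and 0.831. Atp5j and Slc25a3 encode a subunit of mitochondrial ATP synthase and the mitochondrial phosphate carrier. Within groups they were Tmem183a (0.952), Lrtm1 (0.950), Dgcr6 (0.942), Ndufb5 (0.939) and Ndufa5 (0.934), the last a pair of genes for subunits of respiratory complex I. For Ttr they were Mnf1 (0.886), Gckr (0.869), Rdh9 (0.867), Bpgm (0.866) and Hyi (0.864), and within groups Lmf1 (0.877), H2afy (0.871), Fndc4 (0.838), Acot11 (0.835) and Ggcx (0.831). Gckr, the glucokinase regulator, fell with fenretinide at 20 weeks by 0.51 on the log2 scale (adjusted p = 0.0295).

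Rbp4 and Ttr, whose products travel together, had r = 0.288 over the 16 livers and 0.342 within groups. For Lrat and Ttr r was -0.777 over the 16 livers and -0.144 within groups, so that the opposite order lay between the diets more than between mice on 1 diet. Lrat and Rbp4 had r = -0.313, and -0.153 without mouse 29.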

How the data were processed

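Values as deposited by the authors are raw read counts per gene symbol, from libraries of liver RNA. The submitters' processing notes name STAR 2.0, DESeq2 1.6 and mm10. The counting program, gene annotation and strand setting were not given in the sources used here, and the labels and the paper name different TruSeq kits. Groups were taken from the sample labels.

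The whole table was fitted with edgeR 4.0.16 under R 4.3.3, using filterByExpr, TMM, glmQLFit (robust) and glmQLFTest, with Benjamini-Hochberg adjustment over all genes tested and a threshold of 0.05. The 2 groups compared were fitted alone, and the difference between fenretinide effects on all 16 libraries. CPM and log2 CPM (prior count 2) used TMM over 16 libraries. Markers were compared by two-sided exact permutation tests over mice. Alternatives included DESeq2 1.42.0, limma-voom (limma 3.58.1), other filters and scalings, and leaving out each mouse. The scripts were tested on simulated data. Lrat, the lowest of the 3 genes, had at least 846 counts in each library. P-values set differences between groups against the spread between mice.

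Lrat, Rbp4 and Ttr, the 18 gene lists and the alternatives were chosen with earlier results of these data known. Named besides them were their neighbours, the 5 most alike genes, list genes that passed, and up to 3 genes of a list with the smallest p. Of the genes that met these rules 2 are not reported here. Some genes were named after their values were seen (Dgat1, Stra6, Alb and Cebpa). Sequences came from RefSeq on GRCm38.p6, and promoters of Lrat and Rbp4 matched by symbol.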

Additional observations from a re-analysis of the deposited data

How the results depend on the processing

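Fenretinide's effect on Lrat kept its direction in all 17 alternatives at each duration. It was no longer called against a minimum of 1.5-fold (log2 fold change 0.75 at 20 weeks and 0.92 at 7 days). With 1 mouse left out it ran from 0.64 to 0.84 at 20 weeks, where 5 of 8 omissions ended the call, and from 0.85 to 0.97 at 7 days. Ttr at 20 weeks passed with DESeq2 (-0.47), limma-voom (-0.45) and all 16 libraries in 1 fit (-0.47), and at 7 days with DESeq2 (-0.39), and ran from -0.51 to -0.44 at 20 weeks with 1 mouse left out. Rbp4, never called, changed sign in some alternatives. At 7 days it ran from -0.14 to 0.0354 with 1 mouse left out. Between durations on HFD it was -0.0555 with limma-voom, -0.00443 without the filter, and -0.10 to 0.10 with 1 mouse left out, and on FEN-HFD -0.20 to 0.0379. The difference between fenretinide effects on Rbp4 was 0.0137 with limma-voom and -0.21 to 0.0282 with 1 mouse left out. Lrat relative to stellate markers, between durations, ran from -0.0609 to 0.21 on HFD and -0.11 to 0.0270 on FEN-HFD with 1 mouse left out. With the summed CPM of the markers in place of their mean log2 CPM, the diets differed by 0.58 at 20 weeks and 0.95 at 7 days. The durations then differed by 0.18 on HFD and -0.20 on FEN-HFD. The causes were not tested. Leaving out mouse 29 for the retinoid lists was chosen after seeing the data, and at 20 weeks it moved 1 of their 10 numbers called with fenretinide, that of oxidation and reduction genes called higher, from 0 to 1 (Adh7). Over all genes, edgeR called 242 at 20 weeks, 13 at 7 days, 996 between durations on HFD, 153 on FEN-HFD and 4 for the difference between effects, against 1011, 95, 1764, 404 and 115 by DESeq2. With 1 mouse left out these counts ran from 36 (without FEN-HFD mouse 21) to 424 (without mouse 29), 7 (without mouse 65) to 18 (without mouse 143), 468 (without mouse 25) to 938, 57 (without mouse 21) to 486 (without mouse 29), and 0 (without mouse 22 or 65) to 14 (without mouse 45). Limma-voom called 1089, 34, 1240, 894 and 73, and a minimum of 1.5-fold left 26, 4, 119, 42 and 0. With all 16 libraries in 1 fit 661 were called at 20 weeks. No paired analysis was possible because no mouse number was shared between groups. The smallest exact permutation p of 0.0286, reached in 2 of 4 comparisons, adjusts to 0.0571.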

Other observations

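Between 7 days and 20 weeks on HFD, without fenretinide, other retinoid genes changed while Lrat, Rbp4 and Ttr were not called. In this comparison 7.51% of all genes tested were called, in either direction. Of 21 tested genes of retinol and retinal oxidation and reduction 4 rose and 1 fell by edgeR's quasi-likelihood test. Those that rose were Rdh16 (log2 fold change 1.75, adjusted p = 0.000745), Aldh1a1, a retinal dehydrogenase (1.47, adjusted p = 0.0148), Aldh1a7 (1.30, adjusted p = 0.00355) and Dhrs4 (0.41, adjusted p = 0.0268). Aldh1a1 went from 900.1 ± 363 to 2513 ± 237 CPM (SD, n = 4), with no overlap between the groups. Aox3, an aldehyde oxidase, fell by 0.98 on the log2 scale (adjusted p = 0.0106). Of 6 tested binding and uptake genes 1 was called, Scarb1, a lipoprotein and carotenoid receptor, which fell by 0.61 (adjusted p = 0.0191). Of 6 receptor genes 1 was called, Rxrg, which rose by 0.80 (adjusted p = 0.00572).

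In the same comparison Serpina7, which encodes thyroxine binding globulin, another plasma carrier of thyroid hormone, rose from 15.8 ± 3.74 to 163 ± 66.3 CPM (log2 fold change 3.36, adjusted p = 0.00180, edgeR), while Ttr was not called. Of 7 listed adipocyte markers 3 were tested and also rose, Cidec (5.29, adjusted p = 0.00768), Cfd (4.16, adjusted p = 0.0270) and Fabp4 (1.26, adjusted p = 0.0168). Adipoq, which defines adipocytes, was at a mean of 0.0241 CPM in HFD livers at 7 days and 0.817 CPM at 20 weeks, where 1 liver had up to 3.19 CPM. The cells that held these transcripts were not determined, and the part of adipose RNA in these values was not tested.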
